A study of Mus musculus with 4 samples.

Results

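The 38 genes described here are activity-induced immediate early genes of the mouse, chosen by gene symbol from a list of known members. They were chosen with earlier results of these data known. All 38 were measured, out of 19505 named genes on the arrays. They comprise Npas4, 9 AP-1 and related bZIP factors, 4 EGR and 3 KLF zinc fingers, 3 NR4A nuclear receptors, 3 dual-specificity phosphatases, 10 other early regulators and 5 effectors. RNA came from cerebellum of male mice of the C57BL/6N strain, which were 10 weeks old. The vehicle group (n = 2, replicates 7 and 9) received vehicle by mouth for 4 days. The clothianidin group (n = 2, replicates 6 and 7) received the neonicotinoid insecticide clothianidin, written CLO in the labels, at 50 mg per kg per day over the same 4 days. Mice of both groups had rotarod tests over these days, in which a mouse must keep its balance on a turning rod, and all brains were taken under anesthesia straight afterwards. No group without the test was analysed here, so the values compare animals that had all just run. The labels name separate samples and do not say whether each array held 1 animal. The p-values therefore rest on the spread between these samples, which the fit shared in part across all probe sets, and not on a known number of animals.

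Immediate early genes are switched on within minutes of a stimulus by transcription factors that are already present and need no new protein. In neurons, calcium entry through synaptic receptors and voltage-gated channels activates kinases that phosphorylate CREB at cAMP response elements, and serum response factor acts at CArG boxes. Most of the products are transcription factors that turn on later genes, while others act at synapses or end the signal. Npas4 responds mainly to calcium entry, whereas Fos, Egr1 and Dusp1 also respond to growth factors, hormones and stress. In the cerebellum these genes have been used to mark granule cells and other neurons after motor activity.

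Promoter windows are given below as background, and induction itself was not measured here. They are those of the 3 members with a limma p under 0.05 before adjustment (Npas4, Fos and Dusp1). Those of the NR4A genes Nr4a1 and Nr4a3, whose group means were higher with clothianidin by log2 0.62 and 1.23, are also given. Nr4a2, higher by 0.14, is not shown. The differences of Nr4a2 and Nr4a3 changed sign without vehicle replicate 7. The windows are from RefSeq on GRCm38.p6, run from 250 bases before the transcription start to 50 after it, and are read 5′ to 3′ on the gene's strand. Capitals mark the core of the cAMP response element, TGACG on either strand, which lies inside the full element TGACGTCA. The windows are chr19:4989922-4990221 on the minus strand for Npas4, chr12:85473640-85473939 on the plus strand for Fos, chr17:26508423-26508722 on the minus strand for Dusp1, chr15:101266596-101266895 on the plus strand for Nr4a1 and chr4:48045055-48045354 on the plus strand for Nr4a3.
Npas4: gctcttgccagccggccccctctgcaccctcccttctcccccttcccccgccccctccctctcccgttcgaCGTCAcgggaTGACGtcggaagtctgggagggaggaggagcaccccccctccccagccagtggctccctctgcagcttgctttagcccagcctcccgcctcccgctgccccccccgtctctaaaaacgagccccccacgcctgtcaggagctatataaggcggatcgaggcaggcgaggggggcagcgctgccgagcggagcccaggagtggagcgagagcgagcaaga
Fos: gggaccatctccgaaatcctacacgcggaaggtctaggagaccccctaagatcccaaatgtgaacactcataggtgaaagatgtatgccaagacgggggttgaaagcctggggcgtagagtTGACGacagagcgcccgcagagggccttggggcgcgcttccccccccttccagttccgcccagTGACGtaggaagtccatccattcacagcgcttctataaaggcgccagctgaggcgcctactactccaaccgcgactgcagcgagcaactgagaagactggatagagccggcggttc
Dusp1: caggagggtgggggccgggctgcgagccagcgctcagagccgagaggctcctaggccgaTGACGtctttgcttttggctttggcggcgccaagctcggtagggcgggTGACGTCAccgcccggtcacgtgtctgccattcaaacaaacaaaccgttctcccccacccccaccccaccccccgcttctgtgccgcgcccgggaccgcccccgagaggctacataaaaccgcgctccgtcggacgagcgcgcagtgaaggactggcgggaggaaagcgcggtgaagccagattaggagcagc
Nr4a1: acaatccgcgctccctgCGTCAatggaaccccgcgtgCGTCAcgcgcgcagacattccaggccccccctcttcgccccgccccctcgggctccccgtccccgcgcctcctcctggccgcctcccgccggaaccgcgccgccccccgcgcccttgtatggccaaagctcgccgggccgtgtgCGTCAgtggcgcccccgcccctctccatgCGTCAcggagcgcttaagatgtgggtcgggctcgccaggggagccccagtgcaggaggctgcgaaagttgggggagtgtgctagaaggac
Nr4a3: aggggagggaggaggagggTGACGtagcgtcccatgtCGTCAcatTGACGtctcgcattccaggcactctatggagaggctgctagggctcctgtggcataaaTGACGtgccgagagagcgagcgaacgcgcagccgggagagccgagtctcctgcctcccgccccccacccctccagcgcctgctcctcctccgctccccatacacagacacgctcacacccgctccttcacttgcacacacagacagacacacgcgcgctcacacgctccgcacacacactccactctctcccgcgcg

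The Npas4 and Fos windows each held 2 cores. Dusp1 held 3, of which 2 form its single full element, and Nr4a1 and Nr4a3 held 4 each. Members with lower and with higher group means under clothianidin both carried the core. RefSeq windows were matched for 30 of the 38 members. The 8 without a window, for which no motif could be looked up, were Arc, Egr1, Egr3, Fosl1, Ier2, Nptx2, Sik1 and Trib1. Sequence outside the windows was not searched, so a motif not found may lie further away. The core was found in 20 of these 30 (66.7%) and in 23% of the 27025 genes with a window. The full element was in 3 members (Btg2, Dusp1 and Maff) and in 2.03% of all genes. CArG boxes, searched on both strands, were in Dusp5, Egr2 and Zfp36, and in 1.81% of all genes. EGR sites, GCGTGGGCG or GCGGGGGCG on either strand, were in 7 members and 3.93% of all genes. AP-1 sites, TGACTCA or TGAGTCA, were in 1 member, Csrnp1, and 5.95% of all genes. The NR4A element AAAGGTCA was in 0 members and 1.7% of all genes, and the TATA box TATAAA, on the gene's strand alone, was in 6 members and 9.77% of all genes. A match describes letters in the window and does not show that a factor binds there.

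The values were taken as log2 probe set summaries, so a difference of 1 is a doubling. Pairs of values are given in the order vehicle replicates 7 and 9, then clothianidin replicates 6 and 7, and differences are clothianidin minus vehicle. The arrays had median log2 values of 6.49 to 6.54. The low end was described with 1414 probe sets for olfactory and vomeronasal receptors, genes of the olfactory system, and 95% of these had a mean at or below 6.01. Of the 38 members, 8 lay at or below 6.01 in both groups (Egr4, Arc, Klf4, Nptx2, Sik1, Zfp36, Maff and Csrnp1), so their differences are those of dim probe sets. The tissue label was checked against cell type markers. Granule cell and Purkinje cell markers had median levels of 15.56 to 15.87 and 15.93 to 16.59 over the arrays, and forebrain and midbrain markers had 4.90 to 5.46, although Tcf7l2 of that list was at 9.11 to 11.70. Ttr, a choroid plexus gene, was at 13.96 on clothianidin replicate 7 and at 5.67 to 6.38 on the other arrays.

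Across the class as a whole the measured differences went both ways. With clothianidin 17 members were higher and 21 lower, and the median log2 difference was -0.01, as it was over all named genes (-0.01). Npas4 had by far the largest difference of the members, Fos was 1.83-fold and Dusp1 1.82-fold lower, and Nr4a1 and Klf4 were at least 1.5-fold higher with groups that did not overlap. No member passed limma at an adjusted p of 0.05, with 0 of 38 called, and 0% of all 22206 probe sets were called. Every member had a limma adjusted p of 0.997. Before adjustment 3 members (7.89%) had a limma p under 0.05, all 3 lower and 0 higher, where 4.23% of all probe sets did so, 1.93% lower and 2.3% higher. These shares are from the fit of all 4 arrays. Because the members were chosen with earlier results of these data known, the shares are a description only.

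Counting values alone, 5 members (13.2%) were at least 1.5-fold apart with groups that did not overlap, where 7.61% of all probe sets were. Of these, 2 were higher and 3 lower, against 4.04% and 3.57% of all probe sets. The count of 5 rose with each single array left out. A single array then stands for a group and groups separate more easily, and the share of all probe sets in those fits is not given. At any size the groups were apart for 12 members (31.6%), close to the 30.6% of all probe sets. For 18 members the 95% interval of the difference lay within a doubling in either direction, and for 35 it held 0. These are 47.4% and 92.1% of the members, beside 59.8% and 95.8% of all probe sets. With 2 arrays against 2, an exact permutation test of a single gene cannot give a two-sided p below 0.333.

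**Figure D1:**
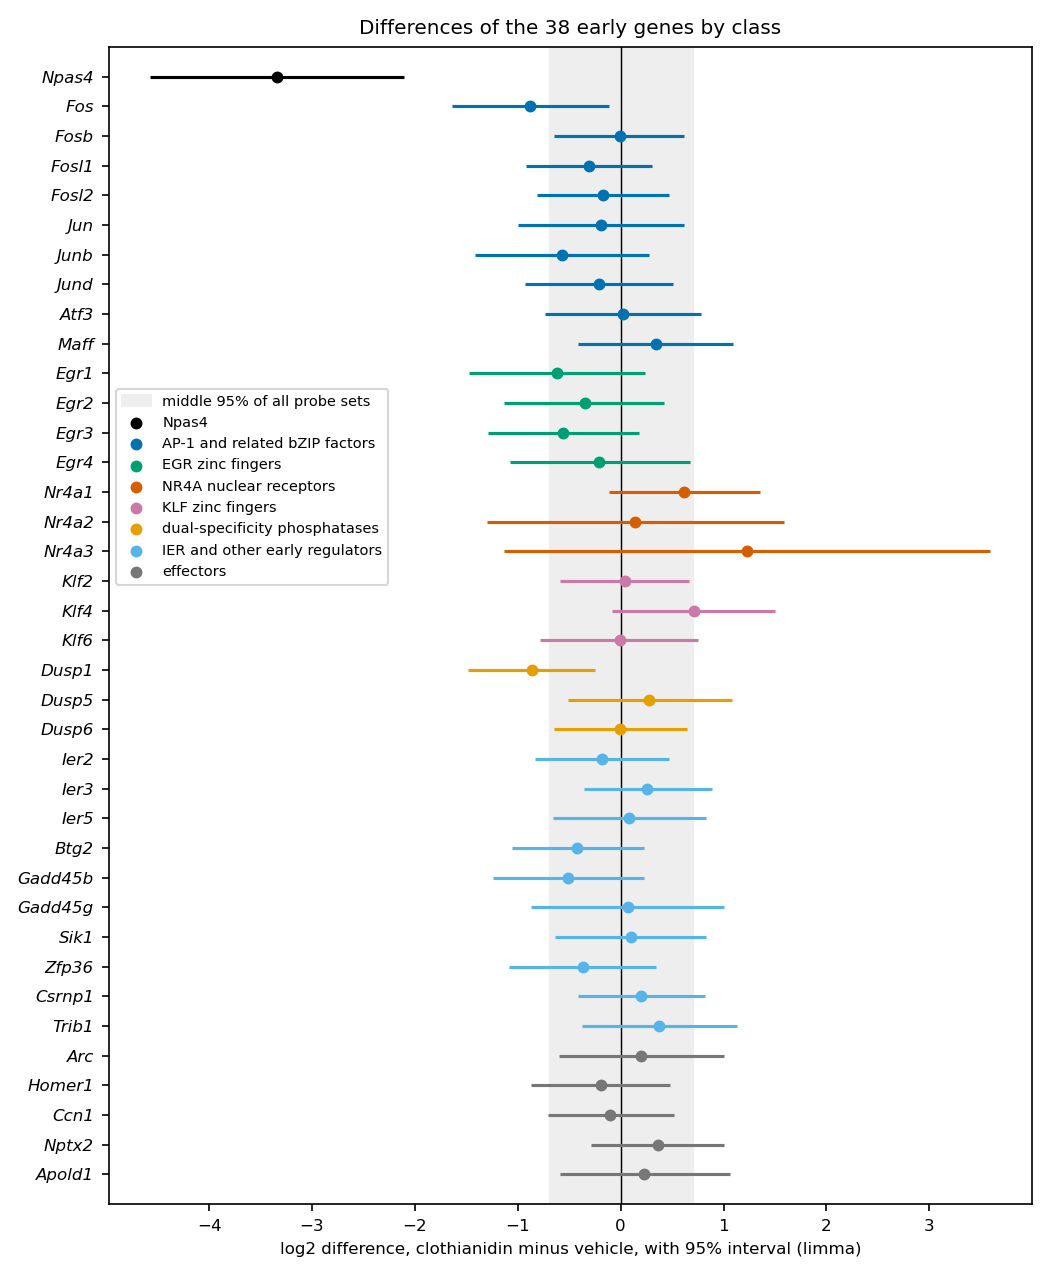
Log2 difference (clothianidin minus vehicle, horizontal axis) of each of the 38 early genes with its 95% interval from limma, coloured by class, over a grey band that holds the middle 95% of all probe sets (-0.69 to 0.70). Npas4 lies at -3.34, Fos and Dusp1 lie just beyond the lower edge of the band, and Nr4a3 lies at 1.23 with an interval from -1.13 to 3.59. Every interval but those of Npas4, Fos and Dusp1 crosses 0.

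Npas4 encodes a neuron-specific bHLH-PAS factor that pairs with ARNT proteins and shapes inhibitory synapses after activity. Its log2 values were 8.29 and 6.54 on vehicle replicates 7 and 9, and 3.78 and 4.37 on clothianidin replicates 6 and 7. Both clothianidin arrays lay below both vehicle arrays. The log2 difference of -3.34 (SE 0.53, 95% interval -4.57 to -2.11) had a limma p of 0.000247 before adjustment and 0.997 after it. It ranked 1 of 22206 probe sets by this p and 1 by the size of a lower value. The vehicle arrays were themselves 1.75 apart, a gap reached by 0.766% of probe sets. The markers Slc17a6 and Tcf7l2 of other brain regions were also highest on vehicle replicate 7, with values given beside the cell type markers. Tbr1 and Drd2 of the same lists were too, but Neurod6, Emx1, Lef1, Slc6a5, Hoxb5, Tph2, Th and Chat were highest on other arrays. The part of other regions in the Npas4 difference was not tested. Leaving out vehicle replicate 7 gave -2.47, and leaving out vehicle replicate 9 gave -4.22. Both clothianidin values lay below 6.01, the upper range of the receptor probe sets, and the value on vehicle replicate 9 lay close to the receptors' 95th percentile on its own array (6.37). The size of the fold is therefore uncertain. Its partner genes had positive differences, 0.60 (SE 0.29) for Arnt and 0.34 (SE 0.32) for Arnt2, with limma adjusted p of 0.997 each.

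**Figure D2:**
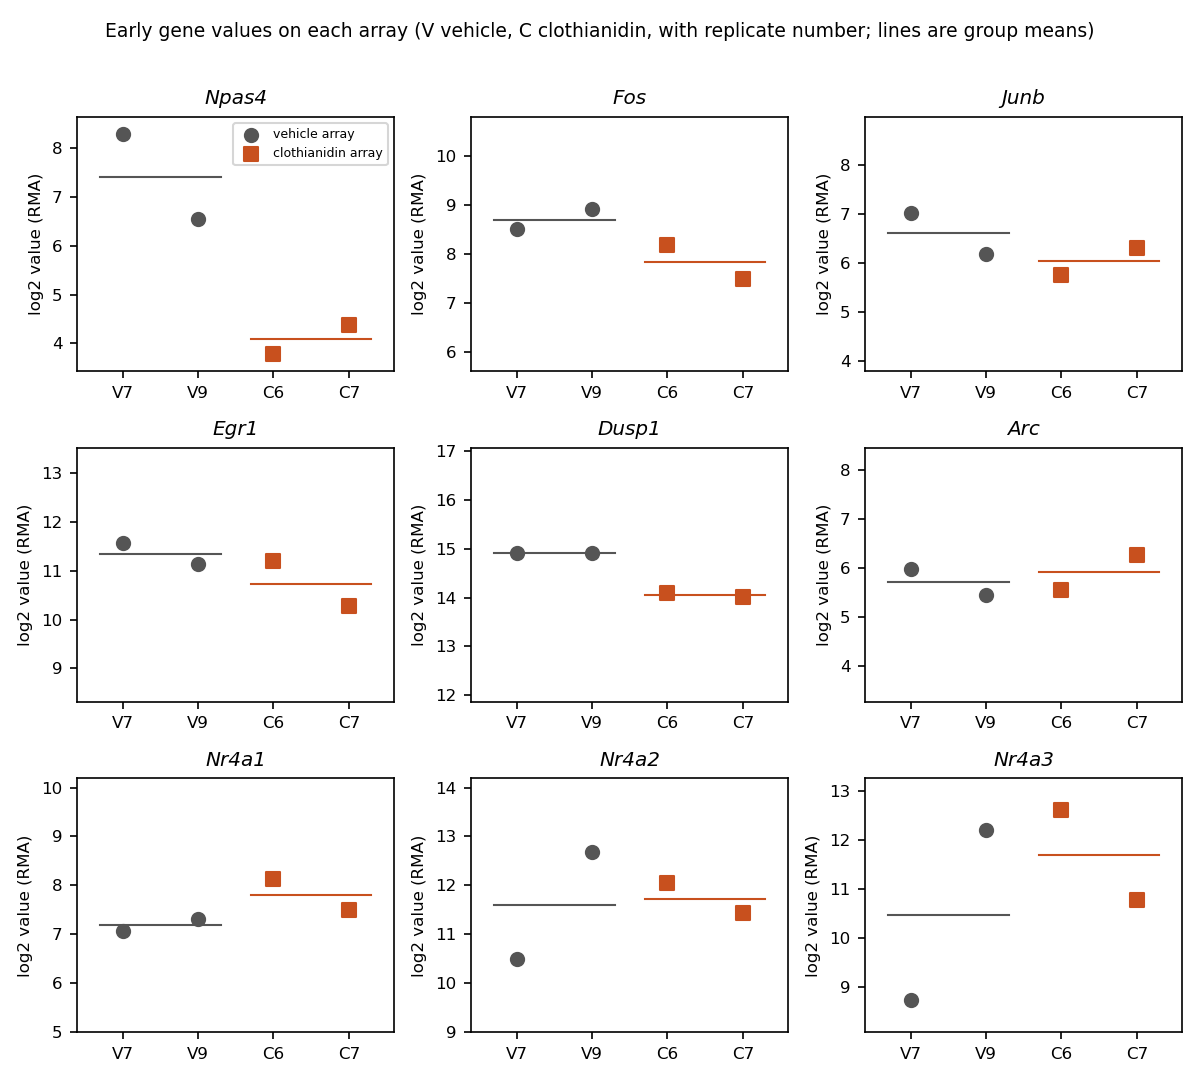
Deposited log2 value (vertical axes, all of the same span) of 9 early genes on the 4 arrays, with circles for vehicle replicates 7 and 9, squares for clothianidin replicates 6 and 7, and lines for group means. Npas4, Fos, Dusp1 and Nr4a1 show groups that do not overlap, while Nr4a2 and Nr4a3 spread more between the vehicle arrays than between the groups.

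AP-1 is a dimer of FOS and JUN family proteins that binds TGA-core sites in later genes. Of the 9 members of this bZIP class 7 were lower and 2 higher, with a median log2 difference of -0.19. Fos was at 8.51 and 8.92 on vehicle replicates 7 and 9 and at 8.18 and 7.50 on clothianidin replicates 6 and 7. Both clothianidin values were below both vehicle values. The log2 difference was -0.88 (SE 0.33, 95% interval -1.64 to -0.11), with a limma p of 0.0297 before and 0.997 after adjustment. Leaving out clothianidin replicate 7 gave -0.54, and leaving out clothianidin replicate 6 gave -1.22.

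Junb, a JUN protein with weaker activating power, was at 7.02 and 6.17 with vehicle, against 5.75 and 6.30 with clothianidin. The groups overlapped, and the difference of -0.57 (SE 0.37) was -0.15 without vehicle replicate 7. Fosl1, which encodes a FOS relative that lacks the strong activation domain, was at 7.21 and 7.23 against 6.97 and 6.85, a small shift of -0.31 (SE 0.27) with groups apart. Among the JUN genes, Jun differed by -0.19 and Jund, the form made at rest, by -0.21, both with overlapping groups. Jun was at 10.16 on clothianidin replicate 6 and 9.29 on replicate 7, so its arrays of 1 group lay further apart than the group means.

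Fosb, whose spliced form ΔFosB builds up with repeated stimulation, had no clear shift, at 6.00 and 6.23 against 6.17 and 6.03. Its interval ran from -0.65 to 0.62, and its difference of -0.01 became 0.01 after median centring or a further quantile normalization. Fosl2 differed by -0.17. The stress-induced repressor gene Atf3 differed by 0.02, or -0.02 after a further quantile normalization, and the small MAF gene Maff by 0.34 at levels of 3.50 to 4.25.

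The EGR proteins are zinc finger factors that act on synaptic genes. All 4 had lower means with clothianidin, with a median of -0.46, although a second probe set of Egr3 went the other way. Egr1, the member most used as an activity marker, was at 11.57 and 11.13 on vehicle replicates 7 and 9 and 11.20 and 10.27 on clothianidin replicates 6 and 7. The low value on clothianidin replicate 7 made most of the difference of -0.62 (SE 0.37), which was -0.15 without that array. Egr2 was at 6.45 and 7.25 against 6.40 and 6.59, and its vehicle arrays were further apart (0.80) than its group means (-0.35). Egr4 differed by -0.21 at a level no higher than the receptor probe sets.

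Egr3 had 3 probe sets, and they disagreed. The brightest, which stands for the gene, was at 6.38 and 7.02 against 6.01 and 6.28, with groups apart and a difference of -0.56 (SE 0.32). Another was at 4.85 and 5.90 against 5.72 and 6.06, a difference of 0.52, and the third was at 3.29 and 2.91 against 3.08 and 2.86, a difference of -0.13. The identifiers of the brightest and of the one at 0.52 mark them as unmapped. Only the third has a chromosome identifier, and it lay within the range of the receptor probe sets. The mean of the 3 gave -0.06, and the median of the EGR class was then -0.28.

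NR4A proteins are orphan nuclear receptors made early after activity and cAMP signals. All 3 had higher means with clothianidin, with a median of 0.62, and for Nr4a2 and Nr4a3 the vehicle arrays lay far apart. Nr4a1 was at 7.06 and 7.31 on vehicle replicates 7 and 9 and at 8.12 and 7.49 on clothianidin replicates 6 and 7. Its groups did not overlap, and the difference of 0.62 (SE 0.31, 95% interval -0.11 to 1.35) had a limma p of 0.0844 before and 0.997 after adjustment. Without clothianidin replicate 6 it was 0.30.

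Nr4a3 was at 8.72 and 12.21 on vehicle replicates 7 and 9 and at 12.61 and 10.78 on clothianidin replicates 6 and 7. The vehicle arrays thus enclosed the lower clothianidin value. Their gap of 3.49 was reached by only 3 of 22206 probe sets, Nr4a3 included, and the other 2 carry no gene name here. Nr4a2 was at 10.50 and 12.68 with vehicle, against 12.04 and 11.43 with clothianidin, and its vehicle gap of 2.18 was reached by 0.234% of probe sets. Both genes were lowest on vehicle replicate 7, the array with the highest Npas4. Their mean differences of 1.23 (SE 1.02) for Nr4a3 and 0.14 (SE 0.63) for Nr4a2 changed sign without that array, to -0.52 and -0.95. A direction for these 2 genes could not be told from 4 arrays.

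**Figure D3:**
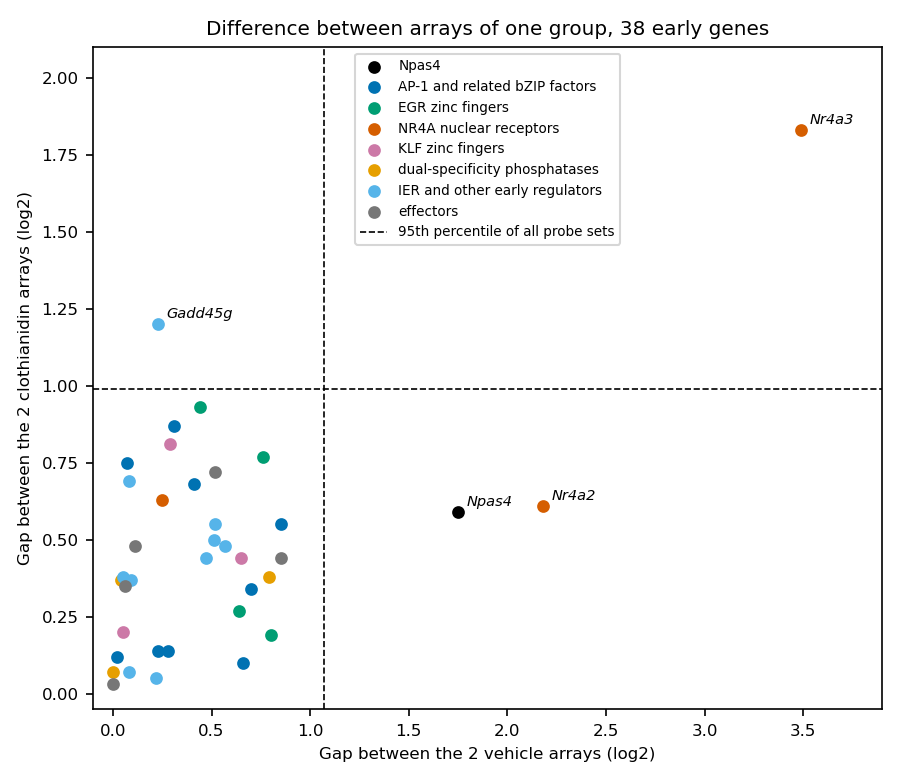
Gap in log2 value between the 2 vehicle arrays (horizontal axis) and between the 2 clothianidin arrays (vertical axis) for each of the 38 early genes, coloured by class, with dashed lines at the 95th percentile of all probe sets (1.07 and 0.99). Nr4a3, Nr4a2 and Npas4 lie beyond the vehicle line, and Nr4a3 and Gadd45g lie beyond the clothianidin line.

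The spread within a group was wide for many other members. The median gap between arrays of a group was 0.36 for vehicle and 0.44 for clothianidin, against 0.31 and 0.31 over all named genes. A gap over 0.5 was found for 16 members (42.1%) in the vehicle group and 15 (39.5%) in the clothianidin group, where 28.8% and 27.7% of named genes had one. The difference between groups exceeded both gaps for 9 members (23.7%), beside 20.1% of named genes. No array was high or low for the whole class. Vehicle replicate 7 was highest for 12 members and lowest for 8, and clothianidin replicate 7 was highest for 6 and lowest for 14. Ties went to the first array in order. Dusp1 and Ccn1, equal on both vehicle arrays, were thus counted as highest on vehicle replicate 7.

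**Figure D4:**
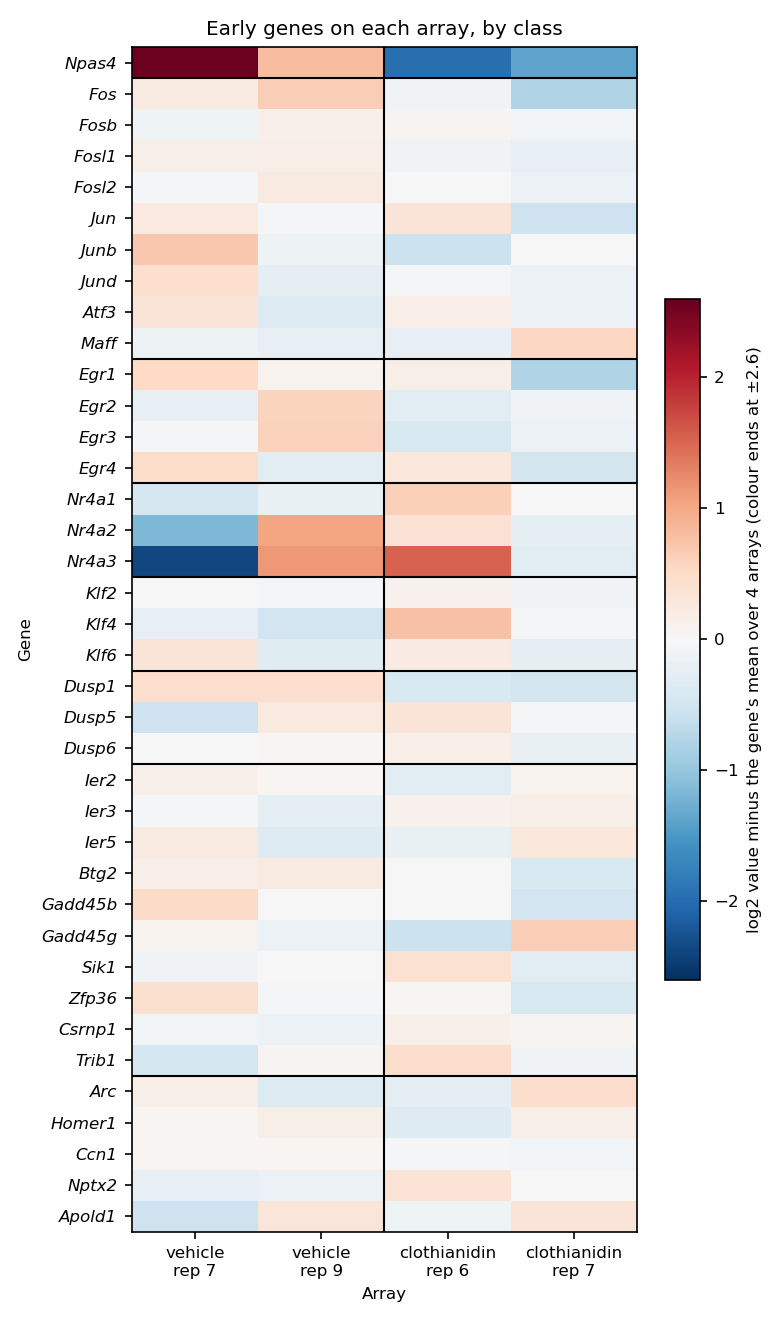
Deviation of each early gene's log2 value from its own mean over the 4 arrays (colour, red above and blue below the mean), with genes in rows by class and arrays in columns. Npas4 is red on both vehicle arrays and blue on both clothianidin arrays, Nr4a2 and Nr4a3 are blue on vehicle replicate 7 and red on vehicle replicate 9, and most other rows are pale.

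Dual-specificity phosphatases switch off MAP kinases and so end the signal that induces these genes. Dusp1, the nuclear member, was at 14.92 and 14.92 with vehicle, against 14.09 and 14.02 with clothianidin. The pairs were within 0.07 of each other and the groups were clearly separate. The log2 difference of -0.86 (SE 0.27, 95% interval -1.48 to -0.25) had a limma p of 0.0116 before and 0.997 after adjustment. It ran from -0.90 to -0.83 as single arrays were left out, the narrowest range among the 7 members at least 1.5-fold different in either direction. Dusp5, a nuclear phosphatase for ERK, differed by 0.28 (SE 0.34) with overlapping groups. Dusp6, its cytoplasmic counterpart, was at 8.81 and 8.85 against 9.01 and 8.64, a difference of -0.01 that became 0.02 after median centring.

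KLF factors are zinc finger proteins known from vessels and from neurons. Klf4 was at 4.58 and 4.29 with vehicle, against 5.55 and 4.74 with clothianidin. The groups did not overlap, and the difference of 0.71 (SE 0.34, 95% interval -0.08 to 1.5) had a limma p of 0.0713 before and 0.997 after adjustment. It was 0.30 without clothianidin replicate 6, and all 4 values lay below 6.01. Klf2, which blood flow induces in endothelium, was at 6.12 and 6.07 against 6.23 and 6.03. Klf6 differed by -0.01, or 0.01 after median centring, with an interval from -0.78 to 0.75. Endothelial markers, which bear on Klf2, Klf4 and Apold1, had 3 of 10 genes higher and 7 lower and a median difference of -0.07. Their median level was 9.26 to 9.59 on the vehicle arrays and 9.12 to 9.60 on the clothianidin arrays, and their part in these results was not tested.

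Of the 10 other early regulators 6 were higher and 4 lower, with a median of 0.08, and none had a limma p under 0.05 before adjustment. Gadd45b, a stress gene linked to DNA demethylation, had the largest difference of this class, -0.51 (SE 0.32). It was at 7.43 and 6.92 on vehicle replicates 7 and 9 and at 6.92 and 6.42 on clothianidin replicates 6 and 7. The groups touched at 6.92. Btg2, an antiproliferative gene, was at 7.12 and 7.17 against 6.92 and 6.54, a difference of -0.42 (SE 0.28) with groups apart. Gadd45g, a relative of Gadd45b, was at 7.59 on clothianidin replicate 6 and 8.79 on replicate 7, a gap of 1.2, with the vehicle arrays at 8.24 and 8.01 in between.

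Zfp36, which encodes the mRNA-destabilising protein tristetraprolin, differed by -0.37 (SE 0.31). Trib1, a pseudokinase gene, differed by 0.37 (SE 0.33) and Ier3, a survival gene, by 0.26 (SE 0.27) with groups apart. Csrnp1, a nuclear protein gene, differed by 0.20 (SE 0.27), also with groups apart but at levels of 4.24 to 4.52. Ier2 differed by -0.18, Ier5 by 0.08 and the CREB coactivator kinase gene Sik1 by 0.10, all with overlapping groups.

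The effectors act at synapses, outside the cell or in vessels. Arc, whose product drives AMPA receptor endocytosis, was at 5.97 and 5.45 on vehicle replicates 7 and 9 and 5.55 and 6.27 on clothianidin replicates 6 and 7. The groups overlapped and the difference was 0.20 (SE 0.35, 95% interval -0.60 to 1), at levels near those of the receptor probe sets. Nptx2, a secreted pentraxin that clusters AMPA receptors, had the largest difference of the effectors, at 5.16 and 5.22 against 5.72 and 5.37, or 0.36 (SE 0.28) with groups apart. Homer1, a postsynaptic scaffold gene, differed by -0.19 (SE 0.29), and the probe set was not assigned to its short inducible form or its long constitutive forms. Apold1, an early gene of endothelium, differed by 0.23. Ccn1, a matricellular growth regulator, was at 6.74 and 6.74 against 6.66 and 6.63, a difference of -0.10 (SE 0.26).

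Genes around the class were read from 4 further lists, in which 0 genes passed limma adjusted over all probe sets and 4 of 88 measured genes (4.55%) had a limma p under 0.05 before adjustment, near the 4.23% of all probe sets. Of 33 measured genes in a list of further early genes, 15 were higher and 18 lower, with a median of -0.05, and 1 had a limma p under 0.05 before adjustment. That gene was Ccn2, which encodes connective tissue growth factor, a relative of CCN1. Ccn2 was at 5.24 and 5.43 with vehicle, against 6.55 and 6.66 with clothianidin, so the groups were well apart. Its log2 difference was 1.27 (SE 0.27), with a limma p of 0.00157 before and 0.997 after adjustment. Both vehicle values of Ccn2 lay below 6.01, the upper range of the receptor probe sets, so the size of its fold is uncertain. Next by p were Amigo3 at 0.50, Ier5l at -0.38 and the kinase gene Plk2 at -0.35. Amigo3 and Ier5l had means at or below 6.01 in both groups.

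Upstream genes, which carry calcium and kinase signals to these promoters, had 18 of 33 higher, 15 lower and a median of 0.08. Of these, 3 had a limma p under 0.05 before adjustment and all were higher: the L-type calcium channel gene Cacna1d by 0.92 (SE 0.34), the histone acetyltransferase and CREB coactivator gene Crebbp by 0.78 (SE 0.30) and the histone deacetylase gene Hdac4 by 0.87 (SE 0.34). Over all probe sets 2.3% were higher and 1.93% lower at a limma p under 0.05 before adjustment. Crebbp was at 13.35 and 13.64 with vehicle, against 14.49 and 14.05 with clothianidin. Cacna1c, the other main neuronal L-type channel gene, differed by 0.72 (SE 0.35). The largest values of Cacna1d, Crebbp, Hdac4 and Cacna1c were all on clothianidin replicate 6.

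Later activity-regulated genes, 20 in all, had 10 higher and 10 lower and a median of 0.02. No gene of this list had a limma p under 0.05 before adjustment. The 4 with the smallest p were the following. Vgf differed by 0.75 (SE 0.32), the neurotrophin gene Bdnf by 0.61 (SE 0.32), the secretogranin gene Scg2 by 0.49 (SE 0.28) and the enkephalin precursor gene Penk by 0.56 (SE 0.31). Bdnf, a target of both NPAS4 and CREB, was at 7.34 and 6.96 with vehicle, against 8.05 and 7.47 with clothianidin. Its limma p was 0.0904 before and 0.997 after adjustment.

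**Figure D5:**
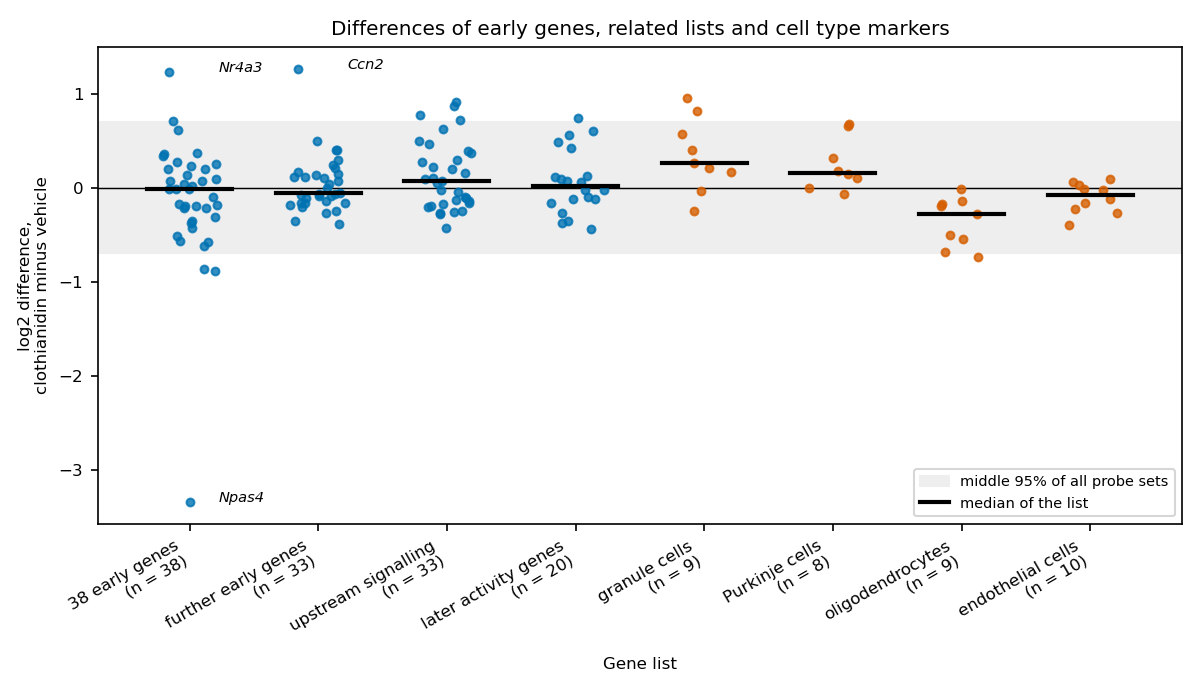
Log2 difference (clothianidin minus vehicle, vertical axis) of each gene in the 38 early genes, 3 related lists (blue) and 4 cell type marker lists (orange), with black bars at list medians and a grey band for the middle 95% of all probe sets (-0.69 to 0.70). The early gene median lies at -0.01 with Npas4 far below, and granule cell markers sit mostly above 0 while oligodendrocyte markers sit below it.

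Some cell type marker lists differed between the groups on the scale of many members' differences, and others lay closer to the median of all named genes (-0.01). Granule cell markers had 7 of 9 higher (median 0.27), Purkinje cell markers 6 of 8 higher (median 0.17) and oligodendrocyte markers 9 of 9 lower (median -0.28). Of all 19505 named genes 9584 were higher and 9921 lower. Medians were 0.08 for molecular layer and Golgi interneurons, 0.03 for Bergmann glia and astrocytes and -0.05 for pericytes and smooth muscle. The microglia and macrophage list and the blood cell list each had a median of -0.12. The granule list had a median level of 15.60 and 15.56 with vehicle, against 15.87 and 15.70 with clothianidin. For oligodendrocytes it was 12.02 and 11.51 against 11.30 and 11.44. Markers of other regions were mixed. Forebrain and midbrain markers had 1 of 6 higher and 5 lower (median -0.20), and brainstem and cerebellar nuclei markers had 3 of 6 higher and 3 lower (median 0), with median levels of 7.54 and 7.77 with vehicle and 7.75 and 7.94 with clothianidin. Tcf7l2, a thalamic and midbrain marker, was at 11.70 and 9.69 with vehicle, against 9.94 and 9.11 with clothianidin. Slc17a6, the vesicular glutamate transporter gene of brainstem and nuclear neurons, was at 9.57 and 8.62 against 8.02 and 8.13, a difference of -1.02 (SE 0.36) with a limma p of 0.0214 before and 0.997 after adjustment. Like Npas4, both genes were highest on vehicle replicate 7, and the Slc17a6 groups were apart while those of Tcf7l2 overlapped. Th, the tyrosine hydroxylase gene of the brainstem list, went the other way, at 7.03 and 6.93 against 8.07 and 7.74. Tph2 of the same list was highest on vehicle replicate 9, at 8.05 and 9.82 against 7.48 and 8.98. In the choroid plexus list 4 of 7 genes were higher, and Ttr was at 5.70 and 5.67 against 6.38 and 13.96, a difference of 4.49 (SE 1.92) that exceeded that of Npas4 in size and came mostly from clothianidin replicate 7. These genes were singled out after their values were seen. In bulk tissue fewer cells of a type and less RNA per cell cannot be told apart, and the part of cell makeup in the members' differences, that of Npas4 included, was not tested.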

How the data were processed

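Total RNA from 4 cerebellum samples was amplified, biotin-labelled and hybridised to Affymetrix whole-transcript arrays, 1 per sample, per the labels' protocols. The authors deposited log2 probe set values made with RMA, per the submitters' processing notes. RMA's version and settings are not given in the sources used here, and log base 2 was assumed. Scanner files were not used here, so signal over background was not known, and the number of arrays limits the precision.

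Probe sets were named from the platform annotation, with 19572 of 22206 carrying 1 symbol, 0 several and 2634 not named. Updating symbols by gene identifier changed 0. The probe set with the highest mean stood for a gene. Groups were compared with limma 3.58.1 in R 4.3.3 (lmFit and eBayes on all probe sets, Benjamini-Hochberg threshold 0.05), tested on simulated data. The prior of eBayes had an SD of 0.306 on 5.96 degrees of freedom, and the median standard error was 0.298.

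All 38 members were accounted for. Those shown on every array were Npas4, Fos, Arc, Egr1, Nr4a1 and Junb, members with unadjusted p under 0.1, the largest of each class, and some others chosen after their values were seen. Up to 4 genes with the smallest p were named per related list. Members and lists were chosen with earlier results of these data known. Alternatives were median centring, quantile normalization, filters on level, 1 or the mean probe set per gene, other priors, no moderation, other fold thresholds and leaving out each array.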

Additional observations from a re-analysis of the deposited data

How the results depend on the processing

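The count of members past an adjusted p of 0.05 was 0 under every alternative run on all 4 arrays. Over all probe sets, in the same alternatives on all 4 arrays, it was 0 except for 8 in a linear model without moderation. That model was set to give a p of 0 where the arrays of each group held equal values, which values of 2 decimals allow. The 8 are therefore not read as findings. The count of members at an unadjusted limma p under 0.05 ran from 3 to 5 with single arrays left out. Members at least 1.5-fold apart without overlap numbered 3 with the filter at the median level, which removed Npas4 and Klf4, 8 at the smaller fold threshold tried, 1 at 2-fold, and 7 to 14 with single arrays left out. The median difference over the members was -0.08 after a further quantile normalization, -0.17 with the filter at the median level, which kept 23 of 38, and -0.16 to -0.06 with single arrays left out. Without Npas4, an alternative chosen after seeing the data, it was -0.01. Median centring turned Fosb to 0.01, Dusp6 to 0.02 and Klf6 to 0.01, and a further quantile normalization turned Fosb to 0.01 and Atf3 to -0.02. The second Egr3 probe set, also chosen after seeing the data, gave 0.52. Leaving out single arrays changed the sign of 20 members and of none of the other 18. The ranges were -0.13 to 0.10 for Fosb, -0.63 to 0.24 for Jun, -0.54 to 0.12 for Jund, -0.76 to 0.04 for Egr2, -0.59 to 0.18 for Egr4, -0.16 to 0.56 for Arc, -0.95 to 1.23 for Nr4a2, -0.52 to 2.97 for Nr4a3, -0.37 to 0.00 for Ier2, -0.20 to 0.37 for Ier5, -0.11 to 0.68 for Dusp5, -0.19 to 0.18 for Dusp6, -0.07 to 0.13 for Klf2, -0.34 to 0.31 for Klf6, -0.44 to 0.04 for Homer1, -0.54 to 0.66 for Gadd45g, -0.25 to 0.44 for Sik1, -0.33 to 0.37 for Atf3, -0.04 to 0.71 for Maff and -0.19 to 0.66 for Apold1. No paired analysis was possible because the groups share only replicate number 7.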
